A study of Mus musculus with 18 samples.

Results

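Ifng and 9 genes that induce it in type 1 T cells were measured in CD8 and CD4 T cells sorted from mouse bone marrow. The genes were taken by name from a panel of 23930 genes, and all 10 were found. They are Ifng itself, which encodes interferon-gamma, the transcription factor genes Tbx21 (T-bet), Eomes (eomesodermin), Runx3, Stat4 and Hlx, the IL-12 receptor chain genes Il12rb1 and Il12rb2, and the IL-18 receptor chain genes Il18r1 and Il18rap. The series, by its title, concerns emergency myelopoiesis that depends on IL-10 and IFN-γ. RNA was read with a targeted amplicon assay that counts 1 short stretch per gene, so a count compares the same gene between libraries and does not rank genes against each other.

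The 18 libraries fell into 6 groups of 3. Zinc-fed pMT-10 mice (the induced group) drank zinc-enriched water for 30 days. They carry a transgene for IL-10 that a metallothionein promoter drives, and zinc activates this promoter. pMT-10 mice on control water carried the same transgene without added zinc. Zinc-fed C57BL/6 mice had no transgene and drank the zinc water for the same time. Each kind of mouse gave 3 CD8 and 3 CD4 libraries, and the series' design text gives 3 mice of each kind. The labels do not say which cells express the transgene, nor which CD8 and CD4 library came from the same mouse.

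Interferon-gamma is the signature cytokine of type 1 helper cells and of cytotoxic T cells, and it acts on macrophages and on blood-forming cells of the marrow. IL-12 binds a receptor of 2 chains, of which Il12rb2 is the chain whose presence limits the response, and signals through Stat4 to Ifng. T-bet, eomesodermin, Runx3 and Hlx act on the Ifng gene together, and IL-18 adds to IL-12 through a binding chain (Il18r1) and an accessory chain (Il18rap) that recruit MyD88.

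The genes lie on 7 chromosomes of the mouse genome (GRCm38, GENCODE M21). Ifng is on chromosome 10 at 118441046 to 118445892 on the plus strand, Eomes on chromosome 9 at 118478212 to 118486132 on the plus strand, Runx3 on chromosome 4 at 135120652 to 135177990 on the plus strand, and Tbx21 on chromosome 11 at 97098071 to 97115331 on the minus strand. Il12rb1 is on chromosome 8 at 70808449 to 70821424 on the plus strand and Il12rb2 on chromosome 6 at 67291318 to 67376188 on the minus strand. Chromosome 1 holds Stat4 (51987148 to 52107189, plus), Hlx (184727140 to 184732619, minus), Il18r1 (40465552 to 40500854, plus) and Il18rap (40515362 to 40551705, plus). Il18r1 and Il18rap read in the same direction with 14507 bases between them.

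RefSeq promoter windows of 300 bases (GRCm38.p6, 250 before a start site and 50 after it) were at hand for 9 of the 10 genes, 13 windows in all, and Il12rb1 had none in the table. Those of Ifng (chr10:118440796-118441095, plus strand), Eomes (chr9:118477939-118478238, plus strand) and Il12rb2 (chr6:67376139-67376438, minus strand) are shown because these genes moved most, in opposite directions, in CD4 cells against pMT-10 mice on control water. Capitals mark a STAT motif.
Ifng: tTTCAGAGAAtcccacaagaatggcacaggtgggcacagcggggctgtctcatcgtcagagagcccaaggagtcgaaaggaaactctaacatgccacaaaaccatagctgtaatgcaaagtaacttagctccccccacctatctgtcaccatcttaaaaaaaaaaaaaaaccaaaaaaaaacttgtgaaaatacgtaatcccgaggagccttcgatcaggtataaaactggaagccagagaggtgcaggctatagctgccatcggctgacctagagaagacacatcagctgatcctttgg
Eomes: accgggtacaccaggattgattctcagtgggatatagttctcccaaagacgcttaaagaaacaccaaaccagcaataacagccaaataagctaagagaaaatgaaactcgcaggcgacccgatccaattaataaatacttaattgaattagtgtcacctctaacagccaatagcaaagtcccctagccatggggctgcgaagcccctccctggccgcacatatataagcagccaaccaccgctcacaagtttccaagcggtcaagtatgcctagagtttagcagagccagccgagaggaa
Il12rb2: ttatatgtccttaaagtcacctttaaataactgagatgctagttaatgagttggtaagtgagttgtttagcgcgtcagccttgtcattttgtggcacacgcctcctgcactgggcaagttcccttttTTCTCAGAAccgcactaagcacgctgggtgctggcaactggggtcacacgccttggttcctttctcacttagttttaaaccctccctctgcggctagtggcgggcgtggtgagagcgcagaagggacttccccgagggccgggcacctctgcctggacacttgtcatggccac

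Motifs were searched on both strands as the letters TTCNNNGAA for STAT factors, GGTGTGA for T-box factors, TGTGGT for RUNX factors and TGANTCA for AP-1. The STAT letters were in 3 of the 13 windows, against 8.3% of 32851 windows of all genes, and those windows belonged to Ifng, Il12rb2 and Il18r1. RUNX letters were also in 3 of the 13 windows, 1 each of Runx3, Il18r1 and Il18rap, against 16.8% of all windows. T-box and AP-1 letters were in 0 of the 13, against 3.98% and 7.81% of all windows. The STAT letters were thus shared by Ifng, which was higher in zinc-fed pMT-10 mice, and Il12rb2, which was lower in their CD4 cells. Il18r1 held them too, and its level in these mice was not called different from either control. The Eomes window held none of the 4 motifs.

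Total counts per library ran from 10546798 to 18519474. The sorted cell type matched its label: Cd8a averaged 2012 to 2412 CPM (the count relative to the TMM-scaled library size) in the CD8 groups and 1.33 to 4.99 CPM in the CD4 groups, and Cd4 averaged 0.444 to 3.14 CPM in the CD8 groups and 1711 to 3253 CPM in the CD4 groups. Il10, which the transgene encodes, had 263, 34 and 176 counts in the induced CD8 libraries and 0 in all CD8 libraries of both controls, and in CD4 cells 398, 187 and 279 counts in the induced libraries, 48, 68 and 22 on control water and 94, 39 and 105 in C57BL/6. Its amplicon counts do not tell transgene from endogenous transcript. pMT-10 libraries held 6117 to 18633 Xist counts and C57BL/6 libraries 2 to 510, with 2866 to 5188 Y-linked counts in C57BL/6, so strain and sex cannot be told apart. The 12 libraries of zinc-fed mice shared 1 sequencing chip and the other 6 a different one, which means that effects of zinc and of the chip cannot be told apart. Replicate 3 of zinc-fed C57BL/6 CD4 cells stood apart with 510 Xist counts (6 and 97 in its group), and replicate 3 of zinc-fed pMT-10 CD4 cells with 1853 counts of the platelet genes Pf4 and Ppbp, which had at most 41 in any other library. Leaving out either of them changed the call of Tbx21 in 3 comparisons and of Ifng in 1, each given with its result, and no other call of Ifng and its inducers. The calls of other named genes were not followed in these fits.

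Against zinc-fed C57BL/6 mice, 2 of the 9 genes tested were called in induced CD8 cells, 2 higher and 0 lower (of all genes, 8.81% were called, 5.68% higher and 3.13% lower). In CD4 cells 6 were called, 5 higher and 1 lower (of all genes 18.7%, 9.29% higher and 9.4% lower). Against pMT-10 mice on control water, 3 were called in CD8 cells, 3 higher and 0 lower (of all genes 7.74%, 5.1% higher and 2.64% lower). In CD4 cells 5 were called, 4 higher and 1 lower (of all genes 18.8%, 9.38% higher and 9.4% lower). The libraries of both groups did not overlap for 3 of the 9 in CD8 and 7 of the 9 in CD4 cells against C57BL/6 (23.6% and 37.4% of all genes), and for 6 of the 9 in CD8 and 9 of the 9 in CD4 cells against control water (23.1% and 43.3% of all genes). A gene was called at an edgeR quasi-likelihood p under 0.05 after Benjamini-Hochberg adjustment over all 11316 genes tested, here written as adjusted p, and Hlx had too few counts to be tested. Ifng and Il12rb1 were called higher in all 4 comparisons, and Tbx21, Stat4 and Il18r1 in none. The median log2 fold change of the 9 genes was 0.22 in CD8 and 1.40 in CD4 cells against C57BL/6 (all genes: -0.0037 and -0.047), and 0.61 in CD8 and 0.72 in CD4 cells against pMT-10 on control water (all genes: -0.0045 and -0.050). Both sets of comparisons use the same zinc-fed pMT-10 libraries. In bulk RNA, fewer expressing cells and less RNA per cell cannot be told apart.

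**Figure D1:**
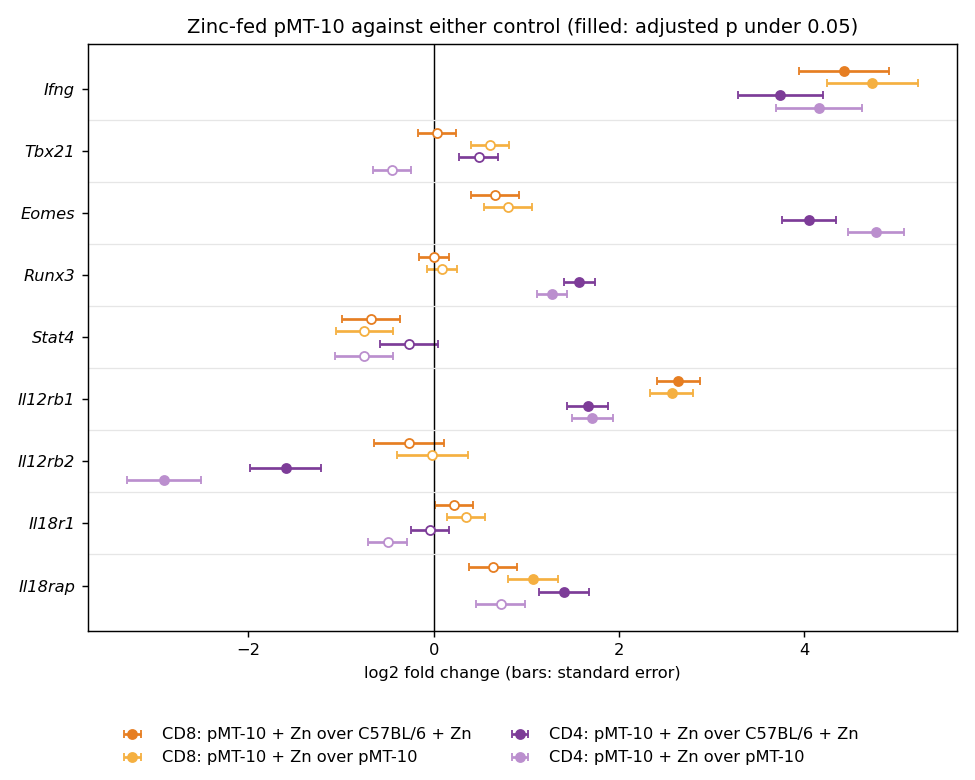
Log2 fold change (x axis, with the standard error as a bar) of each of the 9 tested genes in zinc-fed pMT-10 mice over either control, in CD8 cells (orange) and CD4 cells (purple), with filled points where the adjusted p was under 0.05. Ifng and Il12rb1 have 4 filled points to the right of 0, Eomes and Runx3 are filled in CD4 cells, and Il12rb2 is filled to the left of 0 in CD4 cells.

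Ifng carried the largest change of the 9 tested genes in CD8 cells. CD8 libraries held 214, 155 and 351 CPM in pMT-10 mice on zinc, 13.6, 5.85 and 7.42 CPM in pMT-10 mice on control water, and 18.8, 5.79 and 8.97 CPM in zinc-fed C57BL/6 mice. The lowest induced library lay above every control library by a wide margin, and both controls overlapped. This made 26.8-fold over control water (log2 4.73, SE 0.49, edgeR adjusted p = 1.47e-05) and 21.5-fold over C57BL/6 (log2 4.42, SE 0.49, edgeR adjusted p = 2.52e-05). Without C57BL/6 CD8 replicate 1, whose 18.8 CPM was the highest of its group, the fold over C57BL/6 was 32.5.

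In CD4 cells Ifng stood at 703, 467 and 816 CPM in zinc-fed pMT-10 mice, 33.0, 45.4 and 32.6 CPM on control water, and 30.6, 41.4 and 76.7 CPM in zinc-fed C57BL/6 mice. All 3 induced libraries again lay above all 6 controls. The folds were 17.9 over control water (log2 4.16, SE 0.47, edgeR adjusted p = 1.30e-05) and 13.4 over C57BL/6 (log2 3.74, SE 0.46, edgeR adjusted p = 3.16e-05). The fold over C57BL/6 was 18.4 without its replicate 3, and 11.8 without the zinc-fed pMT-10 library that held platelet transcripts. From high to low, the mean Ifng level followed the order zinc-fed pMT-10 CD4, zinc-fed pMT-10 CD8, C57BL/6 CD4, control-water CD4, C57BL/6 CD8 and control-water CD8. The controls of the same cell type were the neighbours whose libraries overlapped.

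**Figure D2:**
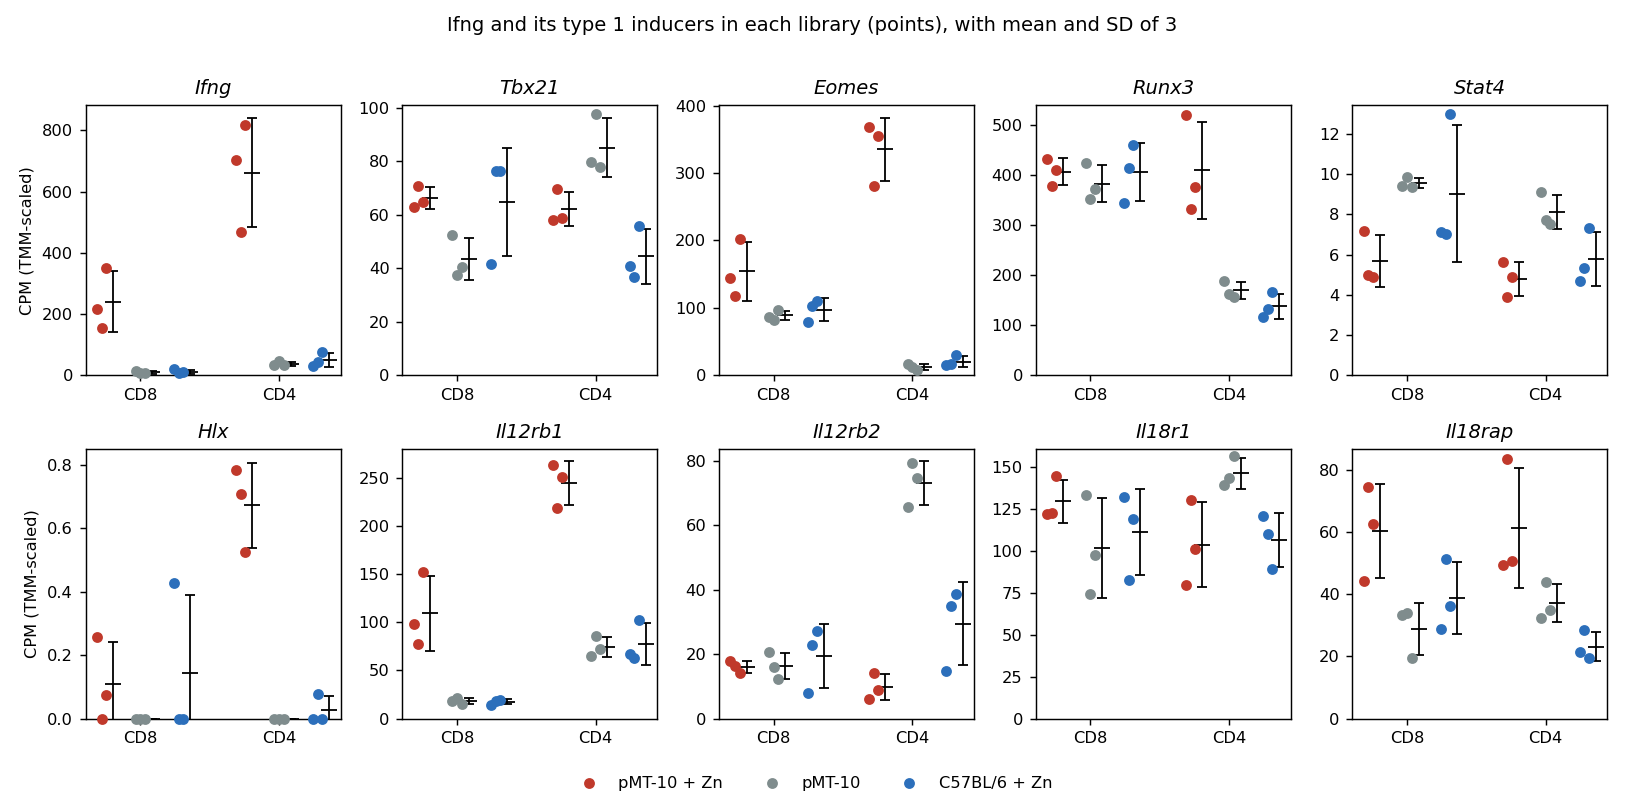
CPM (y axis, a scale for each gene, starting at 0) in every library (points), with the mean and SD of the 3 beside them, for CD8 cells on the left and CD4 cells on the right of each panel. Red points are zinc-fed pMT-10, grey pMT-10 on control water and blue zinc-fed C57BL/6, and the red Ifng points sit at 155 to 351 CPM in CD8 and 467 to 816 CPM in CD4 cells.

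Among the tested transcription factors, Eomes had the largest log2 fold changes, in CD4 cells. Eomes encodes the T-box factor of effector and memory CD8 cells. CD4 libraries held 368, 281 and 355 CPM in zinc-fed pMT-10 mice, 16.7, 12.6 and 7.57 CPM on control water and 14.7, 16.1 and 29.8 CPM in zinc-fed C57BL/6 mice, without overlap between the induced and either control group. The folds were 27.3 over control water (log2 4.77, SE 0.30, edgeR adjusted p = 3.14e-09) and 16.6 over C57BL/6 (log2 4.05, SE 0.29, edgeR adjusted p = 1.42e-08), or 21.8 without C57BL/6 replicate 3. CD8 libraries held 144, 117 and 202 CPM in zinc-fed pMT-10 mice, 86.9, 82.4 and 96.3 CPM on control water, and 78.9, 102 and 111 CPM in C57BL/6 mice. The induced CD8 libraries lay above both controls, but neither difference was called (log2 0.80, SE 0.26, edgeR adjusted p = 0.0639 over control water, and log2 0.66, SE 0.26, adjusted p = 0.117 over C57BL/6). The difference from control water was called by DESeq2 (adjusted p = 0.0199) and without zinc-fed pMT-10 replicate 2 (edgeR adjusted p = 0.0310). It was also called with the compared groups alone (edgeR adjusted p = 0.0321) and with no low-count filter (1.59e-04). The difference from C57BL/6 was called with no low-count filter (edgeR adjusted p = 0.00316).

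Runx3, which acts with the T-box factors and sets the cytotoxic lineage, rose in CD4 cells. CD4 libraries held 519, 333 and 375 CPM in zinc-fed pMT-10 mice, 188, 163 and 156 CPM on control water, and 116, 133 and 165 CPM in zinc-fed C57BL/6 mice. That was 2.42-fold over control water (log2 1.27, SE 0.16, edgeR adjusted p = 1.09e-05) and 2.97-fold over C57BL/6 (log2 1.57, SE 0.17, edgeR adjusted p = 1.16e-06). All 3 induced CD4 libraries reached 333 CPM or more, and no control CD4 library passed 188 CPM. In CD8 cells the means were 406 ± 26.8 CPM in zinc-fed pMT-10 mice, 383 ± 37.0 CPM in control-water and 406 ± 58.1 CPM in C57BL/6 mice (SD, n = 3 each), with log2 differences of 0.09 over control water (adjusted p = 0.826) and 0.0013 over C57BL/6 (adjusted p = 1; SE 0.16 each, edgeR).

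Tbx21, the gene of T-bet and the factor that defines type 1 helper cells, was not called in any of the 4 comparisons. CD8 libraries held 63.1, 70.8 and 64.8 CPM in zinc-fed pMT-10 mice, 52.3, 37.6 and 40.5 CPM on control water, and 41.5, 76.4 and 76.4 CPM in C57BL/6 mice (log2 0.61, SE 0.21, edgeR adjusted p = 0.0811 over control water, and 0.03, SE 0.21, adjusted p = 0.957 over C57BL/6). CD4 libraries held 58.2, 69.6 and 58.7 CPM in zinc-fed pMT-10 mice, 79.7, 97.9 and 77.8 CPM on control water, and 40.8, 36.6 and 55.9 CPM in C57BL/6 mice. The induced CD4 libraries thus lay below every control-water library and above every C57BL/6 library (log2 -0.45, SE 0.21, edgeR adjusted p = 0.135, and log2 0.48, SE 0.21, adjusted p = 0.115). Without C57BL/6 replicate 3 the difference from C57BL/6 was called (log2 0.68, edgeR adjusted p = 0.0372), and 7 genes were then called in that comparison. DESeq2 called the CD8 difference from control water (adjusted p = 0.0405), as did edgeR with no low-count filter (adjusted p = 0.0276). The lower CD4 level against control water was called with library size only (edgeR adjusted p = 0.0434) and with the compared groups alone (0.0312).

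Stat4, which carries the IL-12 signal to the nucleus, was low and not called. Its libraries ran from 4.90 to 7.17 CPM in CD8 and 3.90 to 5.61 CPM in CD4 cells of zinc-fed pMT-10 mice, from 9.38 to 9.85 CPM in CD8 and 7.51 to 9.11 CPM in CD4 cells on control water, and from 7.01 to 13 CPM in CD8 and 4.71 to 7.31 CPM in CD4 cells of C57BL/6 mice. The fitted log2 fold changes were negative in all 4 comparisons, between -0.27 and -0.75, with edgeR adjusted p from 0.0997 to 0.611.

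Hlx, a homeobox factor that acts with T-bet, had few reads. CD4 libraries held 12, 8 and 7 counts in zinc-fed pMT-10 mice, 0 in each control-water library, and 0, 1 and 0 in C57BL/6 mice. Pooled per effective library size, this was 11.3-fold higher than control water when that group at 0 was given 3 counts. The counting error of the induced libraries was left out of this value. Against C57BL/6 the pooled ratio was 26.3, with a 95% exact interval of 4.33 to 1075 that covers counting error only. CD8 libraries held 3, 0 and 1 counts in zinc-fed pMT-10 mice, 0 on control water, and 5, 0 and 0 in C57BL/6 mice. In a fit of 19957 genes with no low-count filter, the CD4 differences had edgeR adjusted p = 0.0997 and 0.305, so Hlx was not called.

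The chains of the IL-12 receptor moved apart in CD4 cells. Il12rb1, the chain shared with the IL-23 receptor, rose in both cell types. CD8 libraries held 98.5, 77.2 and 152 CPM in zinc-fed pMT-10 mice, 18.8, 21.2 and 15.5 CPM on control water, and 14.6, 18.8 and 19.3 CPM in C57BL/6 mice, with no overlap (log2 2.57 over control water and 2.64 over C57BL/6, SE 0.23 each, edgeR adjusted p = 6.90e-07 and 3.07e-07). CD4 libraries held 264, 219 and 251 CPM in zinc-fed pMT-10 mice, 65.5, 86.2 and 72.2 CPM on control water, and 66.6, 63.4 and 102 CPM in C57BL/6 mice (log2 1.71 over control water and 1.66 over C57BL/6, SE 0.22 each, edgeR adjusted p = 1.02e-05 and 1.56e-05). The induced CD4 libraries reached more than 200 CPM and the controls at most 102 CPM, and the fold over C57BL/6 was 3.16, or 3.76 without its replicate 3.

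Il12rb2, the signalling chain that binds Stat4, fell in CD4 cells. CD4 libraries held 6.14, 14.3 and 8.99 CPM in zinc-fed pMT-10 mice, 65.8, 79.3 and 74.5 CPM on control water, and 14.7, 35.0 and 38.8 CPM in C57BL/6 mice. Induced CD4 libraries lay below all controls, although the lowest C57BL/6 library, at 14.7 CPM, was close to the highest induced one. It was 7.47-fold lower than control water (log2 -2.91, SE 0.40, edgeR adjusted p = 3.00e-05) and 3.01-fold lower than C57BL/6 (log2 -1.60, SE 0.39, edgeR adjusted p = 0.00577). CD8 libraries held 17.9, 16.2 and 14.2 CPM in zinc-fed pMT-10 mice, 20.5, 15.9 and 12.4 CPM on control water, and 8.07, 22.9 and 27.1 CPM in C57BL/6 mice. The CD8 groups overlapped and neither difference was called (log2 -0.01 over control water and -0.27 over C57BL/6, SE 0.38 each).

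Within a library, the Il12rb1 counts over the Il12rb2 counts describe this shift without any scaling between libraries. In CD8 cells the ratio ran from 4.77 to 10.7 in zinc-fed pMT-10, 0.917 to 1.33 in control-water and 0.711 to 1.81 in C57BL/6 mice. In CD4 cells it ran from 15.4 to 43.0 in zinc-fed pMT-10, 0.968 to 1.09 in control-water and 1.81 to 4.52 in C57BL/6 mice. The induced ratio thus lay above both controls in each cell type, and it was not tested on its own.

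The IL-18 receptor genes changed less. Il18r1, the chain that binds IL-18, ran from 122 to 145 CPM in CD8 and 79.9 to 130 CPM in CD4 cells of zinc-fed pMT-10 mice, from 74.3 to 134 CPM in CD8 and 139 to 157 CPM in CD4 cells on control water, and from 82.7 to 132 CPM in CD8 and 89.2 to 121 CPM in CD4 cells of C57BL/6 mice. It was not called in any of the 4 comparisons. The nearest to a call was the lower level in CD4 cells against control water, where the groups did not overlap (log2 -0.50, SE 0.21, edgeR adjusted p = 0.0995), and it was called without zinc-fed pMT-10 replicate 2 (log2 -0.69, edgeR adjusted p = 0.0324). That difference was also called with library size only (edgeR adjusted p = 0.0348), with no low-count filter (0.0301) and with the compared groups alone (0.0370).

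Il18rap, the accessory chain, had 44.3, 74.5 and 62.4 CPM in CD8 libraries of zinc-fed pMT-10 mice, 33.2, 34.0 and 19.3 CPM on control water, and 28.8, 51.3 and 36.2 CPM in C57BL/6 mice. In CD8 cells it rose over control water (log2 1.07, SE 0.27, edgeR adjusted p = 0.0137), but not without zinc-fed pMT-10 replicate 2 (adjusted p = 0.0636) or control-water replicate 3 (adjusted p = 0.0858), and was not called over C57BL/6 (log2 0.64, SE 0.26, adjusted p = 0.139). CD4 libraries held 49.5, 83.5 and 50.7 CPM in zinc-fed pMT-10 mice, 32.3, 44.1 and 35.0 CPM on control water, and 21.4, 28.5 and 19.5 CPM in C57BL/6 mice. In CD4 cells it rose over C57BL/6 (2.65-fold, log2 1.40, SE 0.27, edgeR adjusted p = 7.51e-04) and was not called over control water, though the libraries did not overlap (log2 0.72, SE 0.26, adjusted p = 0.0602). The difference from control water was called by DESeq2 (adjusted p = 0.0362), with the compared groups alone (edgeR adjusted p = 0.0189) and with no low-count filter (edgeR adjusted p = 0.00584). It was called in 0 of 6 fits that left out a library. The ratio of Il18r1 to Il18rap counts ran from 1.65 to 2.75 in CD8 and 1.56 to 1.99 in CD4 cells of zinc-fed pMT-10 mice, 2.19 to 5.05 in CD8 and 3.26 to 4.48 in CD4 cells on control water, and 1.61 to 4.59 in CD8 and 3.86 to 5.63 in CD4 cells of C57BL/6 mice, so zinc-fed pMT-10 libraries were clear of both controls in CD4 cells and overlapped them in CD8 cells.

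**Figure D3:**
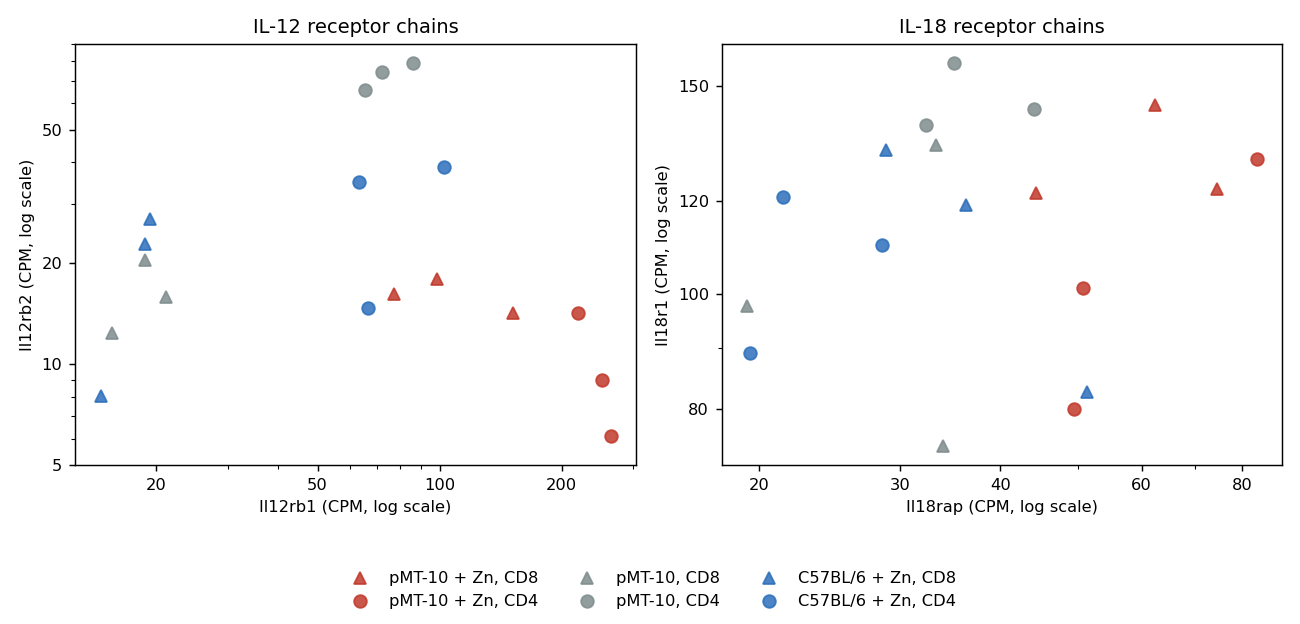
CPM of the IL-12 receptor chains (left, Il12rb1 on x and Il12rb2 on y) and of the IL-18 receptor chains (right, Il18rap on x and Il18r1 on y) in each library, on log axes, with triangles for CD8 and circles for CD4. Red circles (zinc-fed pMT-10 CD4) stand at 219 to 264 CPM of Il12rb1 and 6.14 to 14.3 CPM of Il12rb2, and grey circles (control water) at 65.5 to 86.2 and 65.8 to 79.3 CPM.

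In the CD4 libraries, markers of other lymphocytes differed between the groups as well. Against control water, every zinc-fed pMT-10 library lay below every control library for Il12rb2, Tbx21, Il18r1, Klrb1c and Zbtb16. Tbx21 and Il18r1 were not called there, and 43.3% of all genes did not overlap in that comparison. Against C57BL/6, Il12rb2, Klrb1c and Zbtb16 averaged lower in zinc-fed pMT-10 mice, though Zbtb16 was not called. Tbx21 lay above in every library but was not called (37.4% of all genes did not overlap), and the Il18r1 libraries overlapped. In CD4 cells, Klrb1c (NK1.1) averaged 9.44 ± 5.15 CPM in zinc-fed pMT-10 mice, 170.8 ± 11.8 CPM in control-water and 39.9 ± 5.08 CPM in C57BL/6 mice (SD, n = 3 each), the order that Il12rb2 shows. Zbtb16, the transcription factor of invariant NKT cells, averaged in CD4 cells 0.824 ± 0.887 CPM in zinc-fed pMT-10 mice, 15.5 ± 3.31 CPM in control-water and 4.98 ± 4.0 CPM in C57BL/6 mice. Over the 11 NK cell markers the summed CD4 level ran from 73.6 to 91.9 CPM in zinc-fed pMT-10 mice, 199 to 231 CPM in control-water and 49.8 to 72.1 CPM in C57BL/6 mice, and 3 of the 11 were at 0 in all CD4 libraries of zinc-fed pMT-10 mice, 1 on control water and 2 in C57BL/6. This sum did not follow the order of Klrb1c and Il12rb2, as its zinc-fed pMT-10 libraries lay above those of C57BL/6. Of the 8 NK cell markers tested, 1 was called higher and 4 lower over control water (of all genes 18.8%, 9.38% higher and 9.4% lower). Over C57BL/6, 1 was called higher and 3 lower (of all genes 18.7%, 9.29% higher and 9.4% lower). The higher one in both, Klrb1f, a lectin-like receptor gene named after its values were seen, averaged 63.0 CPM in zinc-fed pMT-10 mice, 7.97 CPM on control water and 7.33 CPM in C57BL/6. Ncr1, which marks NK cells, had 0 counts in all 6 zinc-fed pMT-10 libraries and averaged at most 0.279 CPM elsewhere. The 4 measured gamma-delta and innate-like T cell markers summed, in CD4 cells, to 0.0749 to 1.76 CPM in zinc-fed pMT-10 mice, 13.7 to 19.3 CPM in control-water and 3.16 to 9.58 CPM in C57BL/6 mice. Of these markers 2 were tested, and 2 were called lower over control water and 0 over C57BL/6 (18.8% and 18.7% of all genes called). The share of these other lymphocytes in the change of Il12rb2 was not tested. The summed level of the 7 T cell markers was higher in CD4 cells of zinc-fed pMT-10 mice. It ran from 6810 to 8293 CPM in zinc-fed pMT-10 mice, 4349 to 4487 CPM in control-water and 4637 to 5526 CPM in C57BL/6 mice. Of these 7 markers, 5 were called higher and 0 lower over control water (of all genes, 9.38% higher and 9.4% lower). Over C57BL/6, 4 were called higher and 0 lower (of all genes, 9.29% higher and 9.4% lower). Their part in the CD4 changes was not tested.

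**Figure D4:**
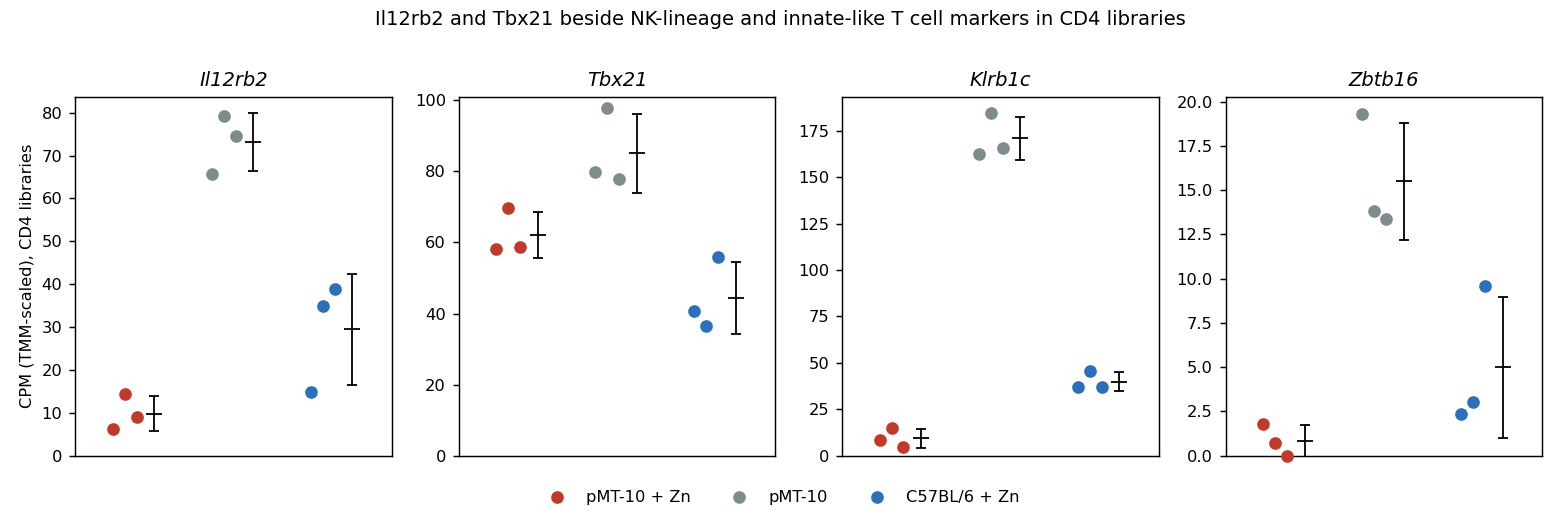
CPM (y axis, from 0) of Il12rb2, Tbx21, Klrb1c and Zbtb16 in CD4 libraries (points), with the mean and SD of the 3 beside them, for zinc-fed pMT-10 (red), pMT-10 on control water (grey) and zinc-fed C57BL/6 (blue). Control-water libraries are highest for all 4 genes, at 65.8 to 79.3 CPM of Il12rb2 and 163 to 184 CPM of Klrb1c.

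CD8 and CD4 cells were then compared within each kind of mouse. In zinc-fed pMT-10 mice 3 of the 9 genes were lower in CD8 than in CD4 cells and 0 higher (of all genes 28.1% were called, 14.7% lower and 13.4% higher). On control water 2 were higher and 4 lower in CD8 cells (of all genes 21.7%, 8.94% higher and 12.8% lower), and in C57BL/6 mice 2 were higher and 2 lower (of all genes 22.2%, 9.28% higher and 12.9% lower). Ifng was lower in CD8 than in CD4 cells of every kind of mouse: 240 ± 100 against 662 ± 178 CPM in zinc-fed pMT-10 (log2 -1.46, SE 0.42, edgeR adjusted p = 0.0156), 8.95 ± 4.08 against 37.0 ± 7.26 CPM on control water (log2 -2.04, SE 0.45, edgeR adjusted p = 0.00403) and 11.2 ± 6.78 against 49.6 ± 24.1 CPM in C57BL/6 (log2 -2.15, SE 0.45, edgeR adjusted p = 0.00267). The call in zinc-fed pMT-10 mice was lost without CD4 replicate 3 (adjusted p = 0.0506), CD8 replicate 1 (0.0571) or CD8 replicate 2 (0.0762). Il12rb1 was also lower in CD8 cells in all kinds of mice (log2 -1.16, -2.02 and -2.14 in zinc-fed pMT-10, control-water and C57BL/6).

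Eomes changed sides. In CD8 relative to CD4 cells it was 154 ± 43.7 against 335 ± 46.9 CPM in zinc-fed pMT-10 mice (log2 -1.12, SE 0.26, edgeR adjusted p = 0.00277), 88.6 ± 7.08 against 12.3 ± 4.56 CPM on control water (log2 2.85, SE 0.28, edgeR adjusted p = 2.27e-07) and 97.3 ± 16.5 against 20.2 ± 8.33 CPM in C57BL/6 mice (log2 2.27, SE 0.28, edgeR adjusted p = 3.47e-06). Runx3 was higher in CD8 than in CD4 cells in both controls (log2 1.18 on control water and 1.56 in C57BL/6, edgeR adjusted p = 1.47e-05 and 4.74e-07) and not called in zinc-fed pMT-10 mice (log2 -0.01, SE 0.16, adjusted p = 0.978). Tbx21 and Il12rb2 were lower in CD8 cells on control water (log2 -0.97 and -2.17, edgeR adjusted p = 0.0016 and 2.80e-04) and not called in the other kinds of mice. In C57BL/6 mice the Tbx21 libraries of CD8 and CD4 cells overlapped (log2 0.54, edgeR adjusted p = 0.0660). Tbx21 was called higher in CD8 cells there without C57BL/6 CD8 replicate 1 (edgeR adjusted p = 0.00564), without CD4 replicate 3 (0.0239) and with no low-count filter (0.0288). Il18rap, not called in C57BL/6 mice (log2 0.74, edgeR adjusted p = 0.0502), was called higher in CD8 cells without CD8 replicate 1 (0.0276) or CD4 replicate 2 (0.0390). Il18r1, not called on control water (log2 -0.52, edgeR adjusted p = 0.0764), was called lower in CD8 cells without CD8 replicate 1 (0.0164).

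**Figure D5:**
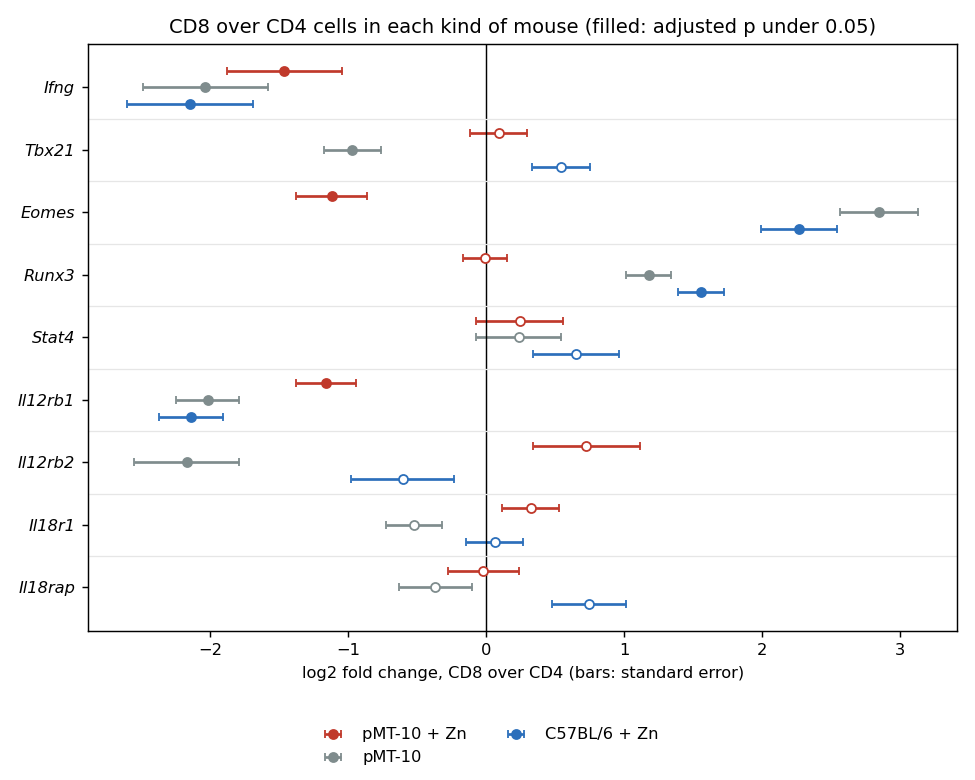
Log2 fold change of CD8 over CD4 cells (x axis, with the standard error as a bar) for each of the 9 tested genes, in zinc-fed pMT-10 (red), control-water pMT-10 (grey) and zinc-fed C57BL/6 mice (blue), with filled points where the adjusted p was under 0.05. Eomes lies at -1.12 in zinc-fed pMT-10 mice and at 2.85 and 2.27 in the controls.

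Whether the change of zinc-fed pMT-10 mice differed between cell types was tested as the CD8 change minus the CD4 change. Against C57BL/6, 2 of the 9 genes were called (5.49% of all genes), namely Eomes (log2 -3.39, SE 0.38, edgeR adjusted p = 5.36e-05) and Runx3 (log2 -1.57, SE 0.23, edgeR adjusted p = 6.73e-04). Against control water 4 were called (3.78% of all genes): Eomes (log2 -3.97, SE 0.38, edgeR adjusted p = 1.93e-05), Runx3 (log2 -1.19, SE 0.23, edgeR adjusted p = 0.00597), Il12rb2 (log2 2.90, SE 0.54, edgeR adjusted p = 0.00508) and Tbx21 (log2 1.06, SE 0.29, edgeR adjusted p = 0.0452). Tbx21 lost its call in 10 of 12 fits that left out a library, the fit without the library that held platelet transcripts among them (adjusted p = 0.102). Il12rb1 was called against C57BL/6 without zinc-fed pMT-10 CD8 replicate 2 (log2 1.19, edgeR adjusted p = 0.0274). It was also called there with library size only (edgeR adjusted p = 0.0305), with no low-count filter (0.00488) and by DESeq2 (adjusted p = 0.0365). Il18r1 was called against control water without zinc-fed pMT-10 CD4 replicate 2 (log2 1.04, edgeR adjusted p = 0.0390) or control-water CD8 replicate 1 (adjusted p = 0.0440). With no low-count filter, edgeR also called Il12rb2 against C57BL/6 (adjusted p = 0.00299), and Il12rb1 and Il18r1 against control water (0.0221 and 0.0163). The Ifng change was not called different between cell types (log2 0.68, SE 0.60 against C57BL/6, and 0.57, SE 0.60 against control water).

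The controls were also set against each other. In pMT-10 mice on control water against zinc-fed C57BL/6, edgeR called 0 of the 9 genes in CD8 cells (0.0972% of all genes) and 0 in CD4 cells (0.141% of all genes). At an unadjusted p under 0.05 there were 1 in CD8 cells and 5 in CD4 cells (Tbx21, Eomes, Il12rb2, Il18r1 and Il18rap), and DESeq2 called 0 in CD8 cells and 1 in CD4 cells, Tbx21. Tbx21 was also called in CD4 cells with the compared groups alone (edgeR adjusted p = 0.0354). With no low-count filter, edgeR called Tbx21 and Il12rb2 higher on control water and Eomes lower in CD4 cells (adjusted p = 1.70e-04, 4.85e-06 and 0.0293). In CD4 cells Tbx21 averaged 85.1 ± 11.1 CPM on control water and 44.4 ± 10.2 CPM in C57BL/6 mice (log2 0.94, SE 0.21, edgeR adjusted p = 0.121), and Il12rb2 73.2 ± 6.85 and 29.5 ± 12.9 CPM (log2 1.31, SE 0.37, adjusted p = 0.474), without overlap between the groups for either gene. In CD4 cells 5 of the 9 did not overlap (11.6% of all genes), and in CD8 cells 0 (9.07% of all genes).

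Of 18 other tested signalling genes of the IL-12 and IL-18 pathway, 3 rose and 0 fell in CD8 cells and 5 rose and 1 fell in CD4 cells over control water, and 2 rose and 0 fell in CD8 cells and 5 rose and 0 fell in CD4 cells over C57BL/6. Of all genes, 7.74% were called in CD8 and 18.8% in CD4 cells over control water, and 8.81% in CD8 and 18.7% in CD4 cells over C57BL/6. The median log2 fold change of the 18 over C57BL/6 was 0.18 in CD8 and 0.22 in CD4 cells (all genes: -0.0037 and -0.047). Gadd45g, which sustains p38 kinase in IFN-γ production, averaged 61.5 CPM in zinc-fed pMT-10 CD8 cells and 8.94 CPM in those of C57BL/6 (log2 2.80, edgeR adjusted p = 2.20e-04), and rose in CD4 cells too (log2 2.25, edgeR adjusted p = 5.44e-04). Gadd45b followed in both (log2 1.25 and 1.08). In CD4 cells Stat3 and Jak2 rose over C57BL/6 (log2 0.78 and 0.62, edgeR adjusted p = 6.35e-04 and 0.0134).

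Of 23 other tested regulators of Ifng transcription, 10 rose and 0 fell in CD8 cells and 15 rose and 3 fell in CD4 cells over control water, and 11 rose and 1 fell in CD8 cells and 14 rose and 2 fell in CD4 cells over C57BL/6 (of all genes, 7.74% were called in CD8 and 18.8% in CD4 cells over control water, and 8.81% in CD8 and 18.7% in CD4 cells over C57BL/6). Their median log2 fold change over C57BL/6 was 0.50 in CD8 and 0.83 in CD4 cells (all genes: -0.0037 and -0.047). Bhlhe40, which permits Ifng expression by holding down Il10, averaged 103 CPM in induced CD8 libraries and 9.86 CPM in those of C57BL/6 (log2 3.37, edgeR adjusted p = 5.43e-05), and rose in CD4 cells as well (log2 2.01, edgeR adjusted p = 0.00118). Prdm1 (Blimp-1), a repressor of naive-type genes, rose by log2 4.13 in CD8 and 1.5 in CD4 cells, Irf8 by 2.56 and 1.80, and Id2, which sustains effector cells, by 2.05 and 2.19, each called.

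Among 7 tested genes of the interferon-gamma receptor and its first responders, 2 rose and 0 fell in CD8 cells and 3 rose and 1 fell in CD4 cells over C57BL/6 (median log2 0.065 in CD8 and 0.62 in CD4), where 8.81% of all genes were called in CD8 and 18.7% in CD4 cells. Over control water 2 of the 7 rose and 0 fell in CD8 cells (7.74% of all genes called) and 3 rose and 2 fell in CD4 cells (18.8%). Irf1, a transcription factor that interferon-gamma induces, rose in both (log2 1.54 in CD8 and 1.38 in CD4 cells over C57BL/6, edgeR adjusted p = 3.54e-07 and 6.63e-07), and so did Nlrc5, the activator of MHC class I genes (log2 1.03 and 1.02). Ifngr2, the signalling chain of the receptor, fell in CD4 cells, to 9.07 CPM in zinc-fed pMT-10 mice against 37.3 CPM in C57BL/6 (log2 -2.06, SE 0.33, edgeR adjusted p = 1.52e-04), and was not called in CD8 cells (log2 -0.57, adjusted p = 0.291).

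Ligands, decoys and partner chains had 10 of 16 genes with enough counts to test, and their median log2 fold change over C57BL/6 was -0.018 in CD8 and -0.36 in CD4 cells. Over C57BL/6 1 of the 10 rose and 0 fell in CD8 cells (8.81% of all genes called) and 0 rose and 2 fell in CD4 cells (18.7%), shares near those of all genes. Over control water 0 were called in CD8 cells (7.74% of all genes) and 1 rose and 2 fell in CD4 cells (18.8%). Il18bp, a secreted decoy for IL-18, rose in CD8 cells over C57BL/6 (21.6 against 5.53 CPM, log2 1.97, edgeR adjusted p = 0.00168) and was not called over control water (adjusted p = 0.162). Il1rl1, the IL-33 receptor that lies at 40429570 to 40465415 on chromosome 1, just before Il18r1, fell in CD4 cells to 11.6 CPM in zinc-fed pMT-10 mice, against 92.0 CPM on control water and 61.0 CPM in C57BL/6 (log2 -3.00 and -2.41, edgeR adjusted p = 4.16e-05 and 2.68e-04), while Il18r1 itself was not called. Il6st, the shared gp130 chain, fell in CD4 cells (log2 -1.39 over C57BL/6, edgeR adjusted p = 2.57e-06). Il12b had 0 counts in every library, and Il12a was counted 31 times in 1 library, the induced CD4 one with platelet transcripts, and 0 times elsewhere.

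Of 8 other receptors of type 1 cells, all tested, 2 rose and 0 fell in CD8 cells (8.81% of all genes called) and 5 rose and 0 fell in CD4 cells (18.7%) over C57BL/6, with a median log2 fold change of 0.15 in CD8 and 0.68 in CD4 cells. Over control water 3 rose in each and 0 fell (7.74% and 18.8% of all genes called in CD8 and CD4 cells). Il15ra, the chain that presents IL-15, rose by log2 1.59 in CD8 and 1.77 in CD4 cells over C57BL/6. In CD4 cells Cxcr6 and Il21r also rose over C57BL/6 (log2 1.32 and 0.74), but Cxcr6 was not called over control water (log2 0.13, edgeR adjusted p = 0.827).

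The genes whose log2 CPM followed Ifng most closely over the 18 libraries were Cd38, an ectoenzyme that consumes NAD (Pearson r = 0.982), Litaf (0.975), the aspartic protease gene Napsa (0.967), Lag3, an inhibitory receptor for MHC class II (0.964), and the metallothionein gene Mt3 (0.963). Their r within the 9 CD8 libraries ran from 0.948 to 0.989 and within the 9 CD4 libraries from 0.970 to 0.991. These libraries share group, strain and chip, so r describes the groups as much as the libraries. Lag3, for example, averaged 208 CPM in CD8 and 601 CPM in CD4 cells of zinc-fed pMT-10 mice, 2.61 CPM in CD8 and 14.7 CPM in CD4 cells on control water, and 3.34 CPM in CD8 and 35.6 CPM in CD4 cells of C57BL/6 mice.

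Of the inducers, Il12rb1 was nearest to Ifng (r = 0.935, rank 31 of all tested genes). Eomes had r = 0.449 over all libraries, but 0.809 within CD8 and 0.986 within CD4 cells, and Runx3 0.138 over all, 0.166 within CD8 and 0.942 within CD4 cells. Il18rap had r = 0.569 over all libraries, 0.657 within CD8 and 0.698 within CD4 cells, and Tbx21 0.236, 0.372 and 0.010. Il18r1 had r = 0.122 over all libraries but opposite signs within the cell types, 0.656 within CD8 and -0.574 within CD4 cells. Il12rb2 had r = -0.318 over all libraries, -0.161 within CD8 and -0.809 within CD4 cells, and Stat4 -0.732, -0.757 and -0.569.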

How the data were processed

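Bone marrow CD8 and CD4 T cells were sorted and RNA was amplified with the Ion AmpliSeq Transcriptome Mouse kit, per the labels' protocols. The deposited values are the authors' raw read counts per gene, 1 amplicon for each of 23930 genes, with no scaling found in them. The genome build mm10 comes from the submitters' processing notes, and no source used here names the aligner or counter. Groups came from the labels, and replicate numbers follow the order of the records. No molecular identifiers are named, so intervals and the limit of 3 counts for a group at 0 cover counting error only.

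Counts were filtered with filterByExpr (11316 genes left), scaled by TMM and fitted with 6 group means over all 18 libraries by robust quasi-likelihood in edgeR 4.0.16 (R 4.3.3, limma 3.58.1). Calls needed a p under 0.05 after Benjamini-Hochberg adjustment across every tested gene. SE is the absolute log2 fold change divided by the square root of F. CPM used TMM-scaled library sizes and is given as mean ± SD of 3, and folds are ratios of mean CPM. Groups are said not to overlap when every library of a group lies above every library of the other. The fit was tested on simulated counts. Alternatives were RLE factors, library size only, no low-count filter, a fit of the compared groups only, DESeq2 1.42.0 and leaving out each library. The design text gives 3 mice of each kind, so p values measure the spread between 3 libraries a group, which CD8 and CD4 cells of the same mice may share. Apart from the 10 genes, the text names up to 4 called genes of each pathway list with the largest absolute log2 fold change over C57BL/6, the 5 genes most like Ifng, and the markers needed to check the sort and give a list's level. The genes and lists were chosen with earlier results of these data known, so no list adds independent support. The values of 1 gene that this rule names are not reported here.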

Additional observations from a re-analysis of the deposited data

Results flagged for a closer look

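The change of zinc-fed pMT-10 mice differed between CD8 and CD4 cells by a test of the difference itself for 4 genes. The values are the log2 change in CD8 minus that in CD4 cells, from edgeR. Against zinc-fed C57BL/6 mice the difference was -3.389 for Eomes and -1.567 for Runx3. Against pMT-10 mice on control water it was -3.968 for Eomes, -1.186 for Runx3, 2.896 for Il12rb2 and 1.061 for Tbx21. Eomes and Runx3 were thus called against both controls, which share the zinc-fed pMT-10 libraries. For Il12rb2 the CD4 change was negative and the CD8 change near 0. For Tbx21 the CD8 change was 0.61 and the CD4 change -0.45, neither of them called, and the adjusted p of the difference was 0.0452. Its call was lost in 10 of 12 fits that left out a library.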

How the results depend on the processing

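No paired analysis was possible because the replicate numbers follow the order of the records and tie no libraries together. No direction of a called result reversed under any alternative, and RLE factors changed no call of the 9 genes. Besides the calls lost on leaving out a library, every changed call was a gain. In induced CD8 cells (zinc-fed pMT-10), 4 genes were called over C57BL/6 with no low-count filter in place of 2, and 5 over control water with no filter or with DESeq2 in place of 3. In CD4 cells, 8 were called over control water with library size only or with the compared groups alone in place of 5. Between the controls in CD4 cells, 3 were called with no filter, 1 with the compared groups alone and 1 with DESeq2 in place of 0. The CD8 minus CD4 difference over C57BL/6 gave 4 with no filter in place of 2. The cause was not tested. Leaving out each library gave 2 to 2 (CD8) and 6 to 7 (CD4) genes over C57BL/6, 2 to 3 (CD8) and 5 to 6 (CD4) over control water, 0 to 0 in both cell types between the controls, 2 to 3, 6 to 7 and 4 to 6 for CD8 over CD4 in zinc-fed pMT-10, control-water and C57BL/6 mice, and 2 to 3 and 3 to 5 for the differences of changes over C57BL/6 and over control water.

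Over all genes, the count called moved by over 1.5 times in these cases. With no filter it was 83 in CD4 and 107 in CD8 cells between the controls (16 and 11 as reported), and 1055 and 847 for the differences of changes (621 and 428). With the compared groups alone it was 577 in CD8 cells over C57BL/6 (997), 578 over control water (876) and 385 for the difference over C57BL/6 (621). With DESeq2 it was 33 in CD4 and 42 in CD8 cells between the controls, and 1030 and 799 for the differences. Without replicate 1 of induced CD4 cells it was 1361 in CD4 cells over C57BL/6 (2115), 1386 over control water (2125), and 264 and 139 for the differences. In CD8 cells it was 596 over C57BL/6 without C57BL/6 replicate 3, and 568 over control water without control-water replicate 3. Between the controls in CD4 cells it was 7 to 10 without any single C57BL/6 library or control-water replicate 1 or 2. The difference over C57BL/6 gave 332 and 378 without C57BL/6 CD4 replicate 1 and 2, 351 without C57BL/6 CD8 replicate 3, 390 without replicate 3 of induced CD4 cells and 410 without replicate 2 of induced CD8 cells. That over control water gave 264, 202 and 222 without control-water CD4 replicate 1, 2 and 3, 212 without replicate 3 of induced CD4 cells, and 697 without replicate 2 of these. Scaling by library size only shifted the median log2 fold change of all genes by -0.11 in CD4 cells over C57BL/6, -0.15 over control water, and 0.16 and 0.17 for the differences over C57BL/6 and over control water. The share of calls that were higher was then 36.5% in place of 49.7% in CD4 cells over C57BL/6, 31.3% in place of 49.9% over control water, 74.9% in place of 64.5% in CD8 cells over C57BL/6, 57.7% in place of 47.6% and 31% in place of 41.2% for CD8 over CD4 in zinc-fed and control-water pMT-10 mice, and 84.4% in place of 62.2% and 87.6% in place of 64.5% for the differences. Under that scaling Tbx21, Stat4 and Il18r1 were called lower in CD4 cells over control water (log2 -0.60, -0.90 and -0.64). With 3 libraries a group, strain tied to sex and chip tied to zinc, no alternative separates these, and Hlx had too few counts to be tested.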
